A study of Mus musculus with 18 samples.

Results

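The 10 genes followed here are known targets of the transcription factor p53, and they were read in 3 comparisons of RNA from mouse dentate gyrus: Cdkn1a, Gtse1, Ccng1, Plk3, Btg2, Mdm2, Bbc3, Pmaip1, Aen and Trp53inp1. They are 10 of the 24015 gene rows in the authors' deposited tables, and each of the 10 symbols was found in all 3 tables. The genes were selected on their symbols and with their fold changes in all 3 tables already known, so their own values are a description. Where an adjusted p is applied to them, it marks a threshold and is not support. RNA was sequenced from microdissected dentate gyrus of C57BL/6 mice aged 8 weeks, with 1 library per mouse, 18 libraries in all and 3 per group. In cFos_OE mice the AP-1 subunit c-Fos, which active neurons make, was overexpressed, and EYFP_OE mice received the fluorescent protein EYFP instead. A short hairpin RNA named for c-Fos was carried by shRNA-cFos_E0 and shRNA-cFos_E1, and a control hairpin by shRNA-Ctrl_E0 and by shRNA-Ctrl_E1. The series concerns neuronal activation, and E1 is compared with a sham state in the deposited tables, here taken as E0. The delivery of the constructs, the cells that carried them and the time at E1 were not given in the sources used here. The 3 comparisons share no library.

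The tumour suppressor p53 is a stress-activated transcription factor, held at a low level by the ubiquitin ligase Mdm2, which p53 itself induces. Its classic targets stop the cell cycle, adjust p53 through feedback, or promote cell death. In the adult brain most neurons no longer divide, and several of these genes also respond to neuronal activity or growth factors through other transcription factors, Btg2 and Plk3 among them.

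Promoter stretches are shown because 3 of these genes hold letters close to the p53 consensus just before or at a start site, and because Btg2 holds the cyclic AMP response element (CRE), a motif of many activity-induced genes. Plk3 is shown for the shorter CRE core, which is common and which Bbc3 and Mdm2 hold too. The sequences are from RefSeq, build GRCm38.p6, not the mm9 build of the expression tables. Windows of 250 bases before and 50 bases after each start were searched for 8 of the 10 genes, 13 windows in all. None was searched for Pmaip1 and Trp53inp1. The search did not cover every chromosome, so a gene without a window here may still have one. Shares of all windows refer to the windows searched. A pair of adjacent p53 decamers (the repeat that makes up the p53 consensus), with at most 1 mismatch over both, was found in 3 of the 13 windows. These were windows of Cdkn1a, Ccng1 and Gtse1. Such a pair occurred in 29 of all 32851 windows searched (0.0883%). Capitals mark that pair in the lines of Cdkn1a, Ccng1 and Gtse1, a single exact decamer in that of Mdm2 and CRE letters in those of Btg2 and Plk3.
Cdkn1a, chr17:29090898-29090977, plus strand: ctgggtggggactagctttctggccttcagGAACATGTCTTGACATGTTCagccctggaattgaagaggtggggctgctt
Mdm2, chr10:117710905-117710974, minus strand: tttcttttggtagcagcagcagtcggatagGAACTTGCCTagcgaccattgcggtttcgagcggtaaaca
Ccng1, chr11:40755432-40755511, minus strand: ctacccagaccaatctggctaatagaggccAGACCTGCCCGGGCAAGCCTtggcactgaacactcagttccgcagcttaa
Gtse1, chr15:85859945-85859964, plus strand, site only: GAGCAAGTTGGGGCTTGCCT
Btg2, chr1:134079284-134079351, minus strand: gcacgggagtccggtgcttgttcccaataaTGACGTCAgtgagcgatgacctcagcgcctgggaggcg
Plk3, chr4:117133992-117134125, minus strand: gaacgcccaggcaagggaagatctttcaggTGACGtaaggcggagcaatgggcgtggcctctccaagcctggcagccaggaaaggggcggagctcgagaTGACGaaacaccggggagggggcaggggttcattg

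The Cdkn1a pair begins 51 bases before one of its RefSeq starts, and the Ccng1 pair begins 195 bases before its start. The Gtse1 pair spans a start site. A single exact p53 decamer was present in 8.36% of all windows and in 6 of the 13 windows of these genes. Those windows belong to 5 genes, Aen, Ccng1, Cdkn1a, Gtse1 and Mdm2. The full CRE (TGACGTCA) was present in 1.79% of windows and in 1 of the 13, a window of Btg2. The CRE core (TGACG), which the full CRE contains on both strands, was present in 20.8% of windows and in 4 of the 13. These were windows of Bbc3, Btg2, Mdm2 and Plk3. The AP-1 motif (TGANTCA) was found in 7.81% of windows and in 0 of the 13 windows of these genes. The serum response element was found in 1.63% of all windows and also in 0 of the 13. Both strands were searched, and a match is a description of the letters and no evidence of binding.

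With the control hairpin, 9 of the 10 genes were higher at E1 and 1, Bbc3, was lower, at an adjusted p under 0.05 in the authors' deposited table. Of all 15675 genes tested there, 33.0% were called, 16.8% higher and 16.2% lower. With the hairpin named for c-Fos, 1 gene, Btg2, was higher and 3 were lower, namely Bbc3, Gtse1 and Trp53inp1, in the authors' deposited table. There 28.1% of 14388 tested genes were called, 16.3% higher and 11.7% lower. With c-Fos overexpression, 3 genes were higher, Cdkn1a, Ccng1 and Mdm2, and 0 were lower in the authors' deposited table, against 13.0% called of 15827 tested genes, 7.10% higher and 5.86% lower. The median log2 fold change of the 10 was 1.39 with shRNA-Ctrl, -0.07 with shRNA-cFos and 0.17 with overexpression, from the authors' deposited tables. Over all tested genes the medians were 0.01, 0.00 and -0.01 in the authors' deposited tables. All these shares and medians describe genes picked with the values in view, and nothing is read from them.

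**Figure D1:**
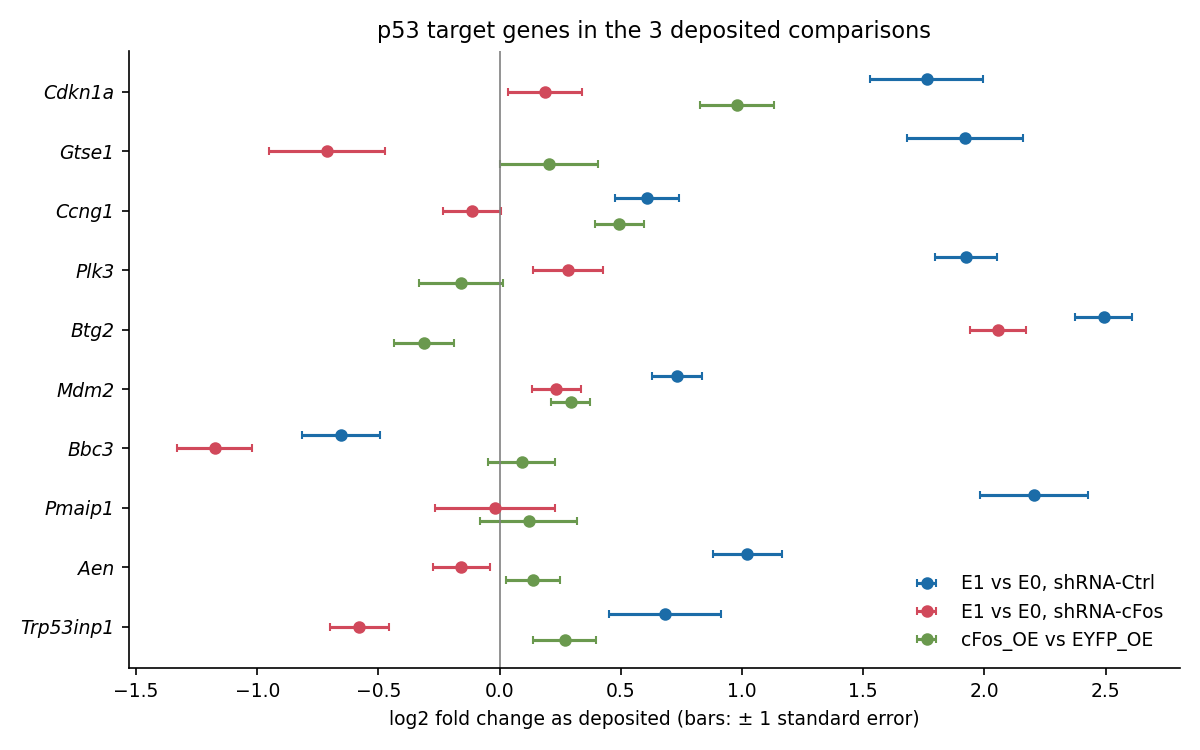
Log2 fold change (x axis, as deposited, bars ± 1 standard error) of each p53 target gene (rows) in the 3 comparisons, E1 against E0 with shRNA-Ctrl (blue), E1 against E0 with shRNA-cFos (red) and cFos_OE against EYFP_OE (green). Blue points lie to the right of 0 for 9 of 10 genes, whereas red points spread from -1.18 for Bbc3 to 2.05 for Btg2.

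Group levels below are normalized counts estimated from each table's mean count and its fold change, after removing the pull toward 0 that the authors' fit applies to fold changes. They carry no error, because the tables hold no value per library, so the overlap of libraries between groups could not be examined. Each of the 3 tables was normalized separately, so levels compare directly only within a pair, and across the hairpin tables only after a scaling that carries no test. In these bulk samples, fewer cells of a type and less RNA per cell cannot be told apart.

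Fos was read first, as the gene that the constructs are named for. Its level went from 178 at E0 to 2126 at E1 with shRNA-Ctrl and from 170 to 999 in the shRNA-cFos arm, computed from the authors' deposited tables. It was 835 in EYFP_OE and 54056 in cFos_OE, computed from the authors' deposited table. The EYFP_OE value rests on the removal of that pull, and is 4934 with the fold change of the authors' deposited table left as it stands. The log2 fold changes of Fos were 3.36 ± 0.14, 2.33 ± 0.15 and 3.34 ± 0.20 in the authors' deposited tables. The direction of the overexpression comparison was itself taken from Fos, so the higher Fos in cFos_OE was set by that choice. All directions given with overexpression rest on it. At E1 Fos rose with both hairpins. The hairpin arms lie in separately normalized tables, so no test of the Fos level between them was made. The difference of its E1 responses is given further on. With the tables scaled as described further on, the log2 ratio of Fos in shRNA-cFos to shRNA-Ctrl was 0.37 at E0 and -0.66 at E1, and -0.06 and -1.09 without scaling, computed from the authors' deposited tables. Fos was thus lower with shRNA-cFos at E1 on both scales, and at E0 the sign turned with the scaling.

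Among the genes of cell cycle arrest, Cdkn1a encodes p21, the inhibitor of cyclin-dependent kinases and the best known p53 target. Its level went from 446 at E0 to 2031 at E1 with shRNA-Ctrl, computed from the authors' deposited table. With shRNA-cFos it stood at 609 and 703, and with overexpression at 152 in EYFP_OE and 344 in cFos_OE, computed from the authors' deposited tables. Cdkn1a was thus high at E1 with the control hairpin and nearly flat with the other. The log2 fold change was 1.76 ± 0.23 with shRNA-Ctrl, 0.19 ± 0.15 with shRNA-cFos and 0.98 ± 0.15 with overexpression in the authors' deposited tables. Of the 10 genes it had the largest fold change with overexpression, 1.97-fold in the authors' deposited table.

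Gtse1 encodes a microtubule-associated protein of the S and G2 phases that binds p53 and lowers its activity. Its level was 27.3 at E0 and 149 at E1 with shRNA-Ctrl, but 51.2 and 25.5 in the shRNA-cFos arm, computed from the authors' deposited tables. The direction was opposite in the 2 arms, with log2 fold changes of 1.92 ± 0.24 and -0.71 ± 0.24 in the authors' deposited tables, both past the threshold. With overexpression the level was 14.4 against 18.4 and the log2 fold change 0.20 ± 0.20, from the authors' deposited table. Gtse1 counts were low, and its standard errors lay near the largest of the shRNA-cFos and overexpression tables, so its estimated levels are uncertain.

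Ccng1 encodes cyclin G1, which recruits protein phosphatase 2A to Mdm2. Levels of Ccng1 were 936 and 1462 with shRNA-Ctrl, 721 and 664 with shRNA-cFos, and 971 and 1400.4 with overexpression, computed from the authors' deposited tables. It shared with Cdkn1a and Mdm2 a call with both shRNA-Ctrl (0.61 ± 0.13) and overexpression (0.49 ± 0.10) and none with shRNA-cFos (-0.11 ± 0.12), as log2 fold changes in the authors' deposited tables. Plk3, a stress-responsive polo-like kinase gene, moved from 118 to 479 with shRNA-Ctrl, computed from the authors' deposited table. With shRNA-cFos its levels were 226 and 279, and with overexpression 93.9 and 81.4, computed from the authors' deposited tables. The log2 fold changes of Plk3 were 1.92 ± 0.13, 0.28 ± 0.14 and -0.16 ± 0.17 in the authors' deposited tables. Exons of Plk3 overlap those of Tctex1d4 on the opposite strand in the annotation at hand, and those of Cdkn1a overlap AC167363.2, also on the opposite strand and absent from the tables used here. With the strand setting of the counting not given, reads of such partners cannot be told apart. Counts of Tctex1d4 were low, with means from 2.10 to 3.91 in the authors' deposited tables.

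Btg2 encodes an antiproliferative cofactor of RNA deadenylation and is also an immediate early gene of neurons. It stood apart from the other arrest genes in rising in both hairpin arms, from 671 to 4067 with shRNA-Ctrl and from 528 to 2365 in the shRNA-cFos arm, computed from the authors' deposited tables. The log2 fold changes were 2.49 ± 0.12 and 2.05 ± 0.12 in the authors' deposited tables. With overexpression Btg2 stood at 407 and 319, with a log2 fold change of -0.31 ± 0.12 that did not pass the threshold in the authors' deposited table.

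Mdm2, the feedback ubiquitin ligase that marks p53 for degradation, had modest changes with small errors. Its levels were 974 and 1645 with shRNA-Ctrl, 821 and 972 with shRNA-cFos, and 827 and 1022 with overexpression, computed from the authors' deposited tables. The log2 fold changes were 0.73 ± 0.10, 0.23 ± 0.10 and 0.29 ± 0.08 in the authors' deposited tables. The shRNA-cFos value missed the threshold although it differed little in size from the overexpression value, which passed.

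Death genes split. Bbc3 encodes PUMA, a BH3-only protein that frees the mitochondrial death pathway, and of the 10 genes it alone was lower in both hairpin arms. Levels of Bbc3 went from 339 to 207 with shRNA-Ctrl and from 248 to 101 in the shRNA-cFos arm, computed from the authors' deposited tables. The log2 fold changes were -0.66 ± 0.16 and -1.18 ± 0.16 in the authors' deposited tables, and 0.09 ± 0.14 with overexpression. Pmaip1 encodes NOXA, another BH3-only protein, and had the opposite direction with shRNA-Ctrl. Its level was 32.8 at E0 and 209 at E1 there, against 29.1 and 28.5 with shRNA-cFos and 14.5 and 16.6 with overexpression, computed from the authors' deposited tables. The log2 fold changes of Pmaip1 were 2.21 ± 0.22, -0.02 ± 0.25 and 0.12 ± 0.20 in the authors' deposited tables. Its estimated levels were low outside shRNA-Ctrl_E1. As for Gtse1, its standard errors lay near the largest of the shRNA-cFos and overexpression tables, so its levels and fold changes there are uncertain.

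Aen encodes a nuclease that enhances apoptosis. Aen went from 435 to 927 with shRNA-Ctrl, and stood at 425 and 379 with shRNA-cFos and at 384 and 427 with overexpression, computed from the authors' deposited tables. The log2 fold change was 1.02 ± 0.14 with shRNA-Ctrl, and the values of -0.16 ± 0.12 and 0.14 ± 0.11 did not pass in the authors' deposited tables. Trp53inp1 encodes a stress protein that promotes p53 phosphorylation and autophagy. Its levels were 406 and 730 with shRNA-Ctrl, 428 and 280 with shRNA-cFos, and 273 and 337 with overexpression, computed from the authors' deposited tables. Like Gtse1 it was called in opposite directions in the 2 hairpin arms, at 0.68 ± 0.23 and -0.58 ± 0.12, and its overexpression value of 0.27 ± 0.13 did not pass in the authors' deposited tables.

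**Figure D2:**
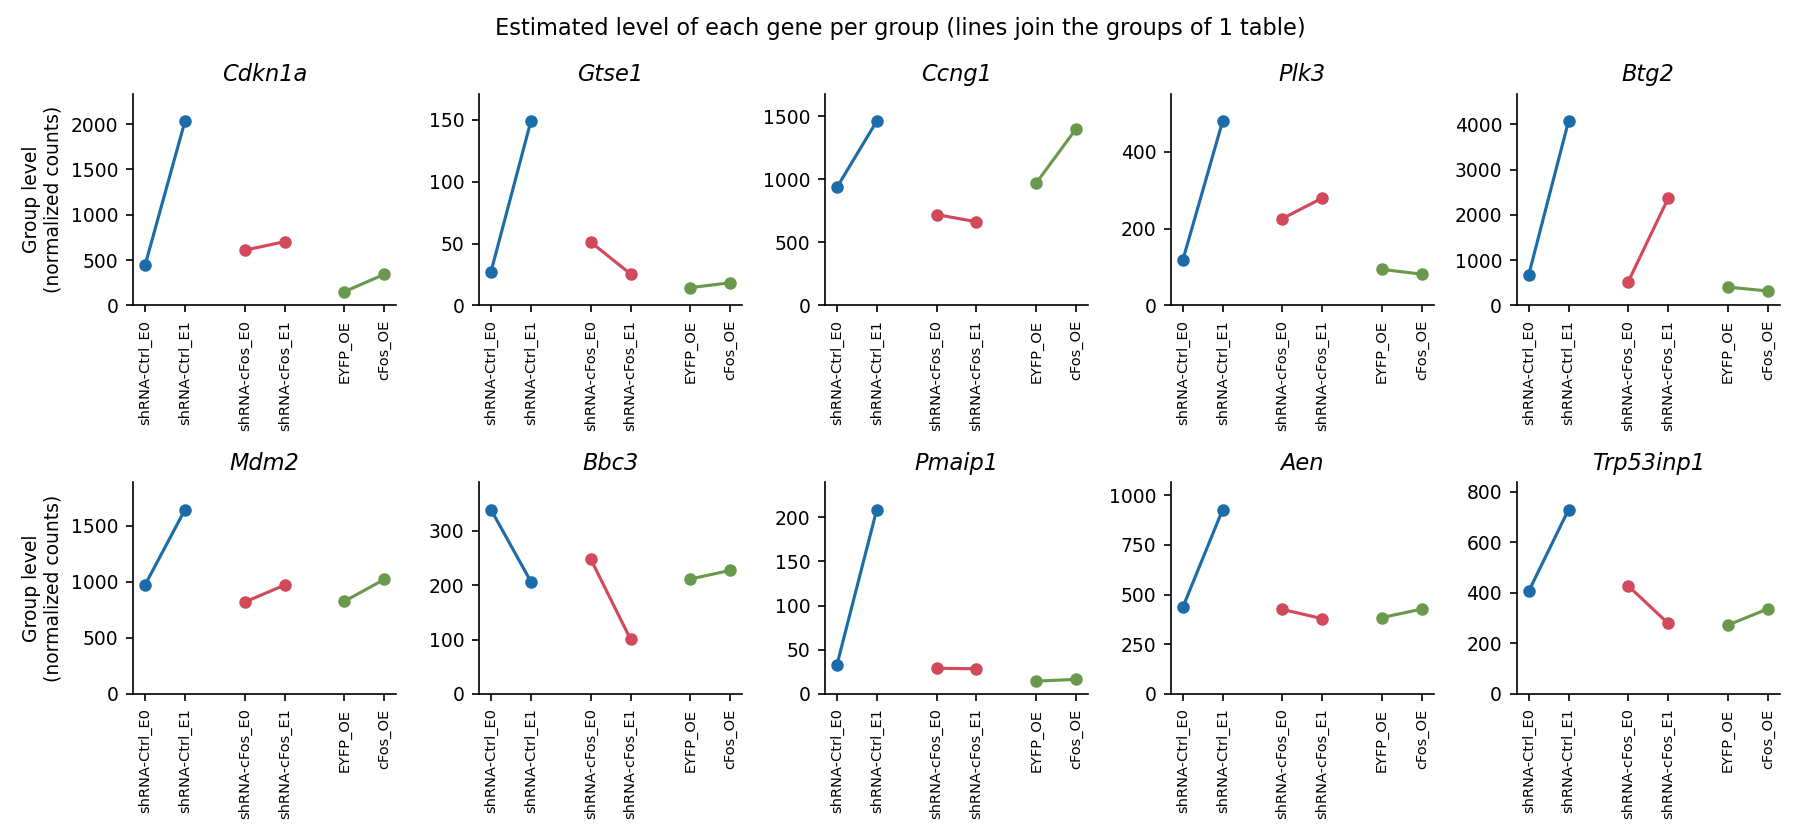
Estimated group level (y axis, normalized counts, starting at 0, a scale of its own per gene) of the 10 p53 target genes in the 6 groups (x axis), with lines joining the 2 groups of 1 table and no error bars, since no value per library was used. The lines of Cdkn1a, Pmaip1 and Gtse1 climb steeply with shRNA-Ctrl and not with shRNA-cFos, whereas that of Btg2 climbs with both.

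The E1 responses of the 2 hairpin arms were set against each other gene by gene, as the log2 fold change with shRNA-cFos minus that with shRNA-Ctrl. All 10 differences were below 0, and 9 passed an adjusted p of 0.05 over all genes, computed from the authors' deposited tables. The 10 genes were picked with both fold changes known, so these counts are a description and nothing is read from them. Among 14386 genes tested in both, 23.8% were called, 11.0% lower and 12.9% higher with shRNA-cFos, from the authors' deposited tables. The difference was -2.63 ± 0.34 for Gtse1, -2.22 ± 0.33 for Pmaip1, -1.64 ± 0.19 for Plk3 and -1.57 ± 0.28 for Cdkn1a, computed from the authors' deposited tables. It was -1.26 ± 0.26 for Trp53inp1, -1.18 ± 0.18 for Aen, -0.72 ± 0.18 for Ccng1, -0.50 ± 0.14 for Mdm2 and -0.44 ± 0.16 for Btg2, computed from the authors' deposited tables. For Bbc3 it was -0.52 ± 0.22, from the authors' deposited tables, and did not pass. The median over the 10 was -1.22, and 0.01 over all genes tested, from the authors' deposited tables. For comparison, the difference of Fos itself was -1.03 ± 0.20, computed from the authors' deposited tables.

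**Figure D3:**
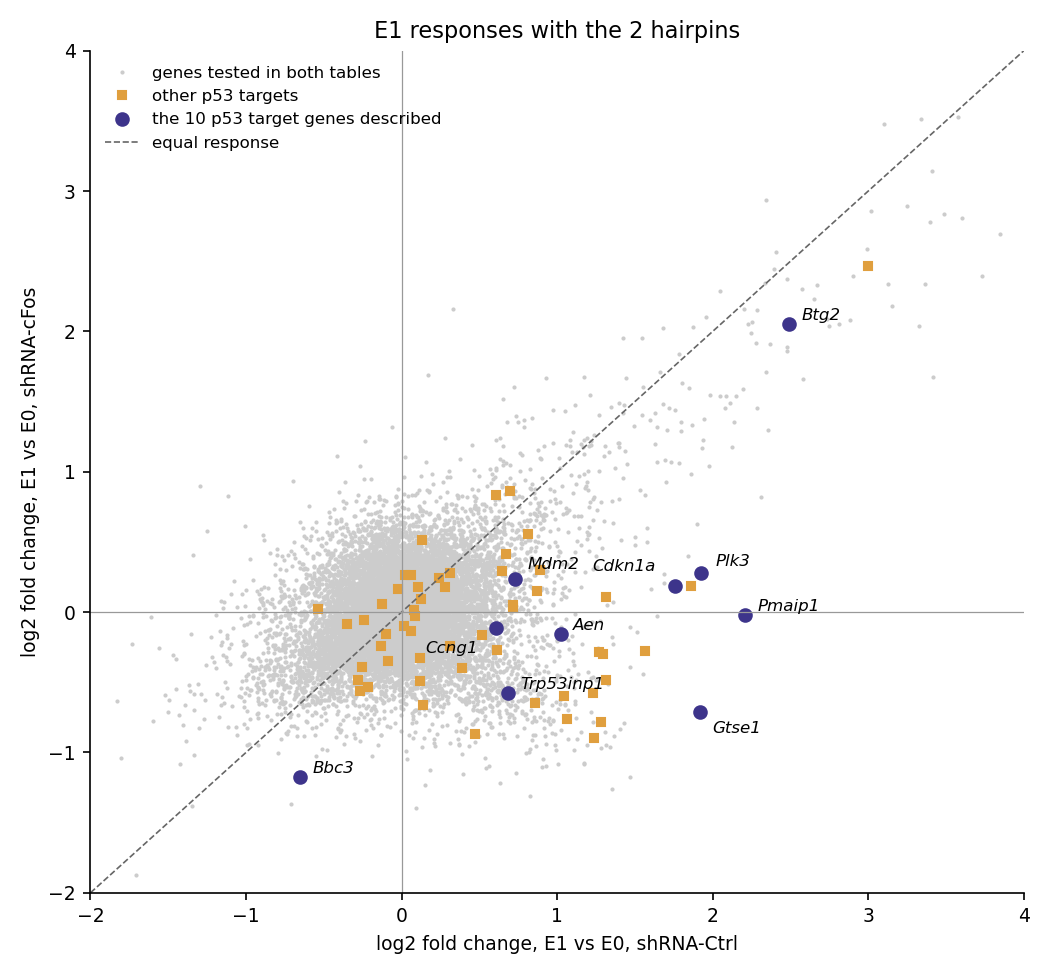
Log2 fold change E1 against E0 with shRNA-Ctrl (x axis) and with shRNA-cFos (y axis) for the genes tested in both tables (grey), other p53 targets (orange squares) and the 10 genes described (labelled circles), where the dashed line marks equal responses and 8 genes lie outside the axes. The 10 labelled genes all lie under the dashed line, Btg2 (-0.44) and Mdm2 (-0.50) nearest to it.

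Levels of the 2 hairpin arms were also set side by side, after scaling the separately normalized tables by the median ratio of their E0 levels over 12406 genes (log2 -0.43), with no error and no test. On this scale the shRNA-cFos level was below the shRNA-Ctrl level at E1 for 10 of 10 genes, by a median log2 ratio of -0.78, computed from the authors' deposited tables. At E0 it was above for 9 of 10, with a median of 0.33, computed from the authors' deposited tables. Without the scaling the count at E1 was again 10 and that at E0 was 4. The E1 ratio was the larger in size for 9 of 10 genes with scaling, as in Pmaip1 (-2.44 at E1, 0.26 at E0) and Gtse1 (-2.11 and 1.34), computed from the authors' deposited tables. Plk3 was the exception, with 1.37 at E0 and -0.35 at E1, computed from the authors' deposited tables.

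Genes that regulate p53, and further p53 targets, were taken from 4 lists drawn up by function, 79 genes in all. The lists were drawn up with earlier results of these data known. The gene of p53 itself, Trp53, had a log2 fold change of 0.08 ± 0.11 with shRNA-Ctrl and -0.02 ± 0.10 with overexpression, neither past the threshold in the authors' deposited tables. With shRNA-cFos Trp53 fell by 0.49 ± 0.12 on the log2 scale in the authors' deposited table (adjusted p = 0.000377, DESeq2), and the responses differed by -0.57 ± 0.16 (adjusted p = 0.00361). Mdm4, an Mdm2 relative that inhibits p53, rose by 0.26 ± 0.09 with shRNA-Ctrl in the authors' deposited table, and its values of 0.03 ± 0.11 and 0.12 ± 0.10 in the other tables did not pass. Of the 21 tested regulators of 22 listed, 7 rose and 1 fell with shRNA-Ctrl, 7 rose and 2 fell in the shRNA-cFos arm, and 1 rose and 1 fell with overexpression in the authors' deposited tables. Over all genes, 16.8%, 16.3% and 7.10% were higher in the authors' deposited tables. The medians of the regulators were 0.10, 0.03 and -0.05 in the authors' deposited tables. Ppm1d, a phosphatase that dampens p53 signalling and is itself a p53 target, rose in both arms, at 0.87 ± 0.11 and 0.69 ± 0.13 in the authors' deposited tables. Ppp1r13l, which encodes the p53 inhibitor iASPP, rose with shRNA-Ctrl by 0.91 ± 0.19, and its response was lower with shRNA-cFos by a difference of -1.11 ± 0.27, from the authors' deposited tables. Over the 21 regulators, the E1 response was higher with shRNA-cFos for 2 and lower for 4, and the median difference was 0.00. Of all genes tested in both arms, 12.9% were higher and 11.0% lower. Trp73, a p53 relative, fell with overexpression (-0.69 ± 0.16), and Trp53bp1 was the 1 regulator that rose there (0.22 ± 0.07), in the authors' deposited table.

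The other 57 p53 targets were counted in the same way. With shRNA-Ctrl, 30 of 56 tested rose (53.6%) and 4 fell (7.14%), and the median on the log2 scale was 0.31 in the authors' deposited table. With shRNA-cFos, 9 of 54 rose (16.7%) and 14 fell (25.9%), with a median of -0.09 in the authors' deposited table. With overexpression, 10 of 55 rose (18.2%) and 3 fell (5.45%), with a median of 0.06 in the authors' deposited table. The E1 response was lower with shRNA-cFos for 23 of 54 (42.6%) and higher for 1, Sesn1 (0.55 ± 0.14), and the median over the 54 was -0.31, from the authors' deposited tables. The background shares of all genes are those given above, and no test of the lists was made. With earlier results known when the lists were drawn up, these shares are a description and not independent support.

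Arrest and repair targets (18 genes) gave 10 higher and 1 lower with shRNA-Ctrl, in the authors' deposited table. Plk2, a polo-like kinase induced by activity that weakens synapses, led at 7.98-fold, followed by the spindle gene Ckap2 (log2 1.28 ± 0.26) and the phosphatase gene Ptprv (1.22 ± 0.29) in the authors' deposited table. Plk2 also rose with shRNA-cFos (log2 2.47 ± 0.08), whereas Gadd45a, a growth arrest and DNA damage gene, fell there (-0.87 ± 0.21) in the authors' deposited table. With overexpression Rprm, a mediator of G2 arrest, rose 3.64-fold and Gadd45a 3.61-fold in the authors' deposited table, larger changes than that of Cdkn1a. Rprm had log2 fold changes of -0.10 ± 0.12 and -0.16 ± 0.12 at E1 in the 2 hairpin arms of the authors' deposited tables, neither past the threshold. Death targets (19 genes) gave 10 higher and 1 lower with shRNA-Ctrl, and 3 higher and 6 lower in the shRNA-cFos arm, in the authors' deposited tables. Pidd1, a death-domain scaffold gene, rose by 1.57 ± 0.24 and the death receptor gene Tnfrsf10b by 1.30 ± 0.22 with shRNA-Ctrl in the authors' deposited table. Bax, a death effector gene of the mitochondrial pathway, fell in both arms, at -0.28 ± 0.10 and -0.48 ± 0.11 in the authors' deposited tables. Apaf1, the apoptosome scaffold gene, rose in all 3 comparisons, at 0.61 ± 0.09, 0.83 ± 0.11 and 0.53 ± 0.10 in the authors' deposited tables.

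Metabolic, stress and secreted targets (20 genes) gave 10 higher and 2 lower with shRNA-Ctrl and 3 higher and 5 lower in the shRNA-cFos arm, in the authors' deposited tables. Sesn2, which restrains mTORC1, had a log2 fold change of 1.31 ± 0.15 with shRNA-Ctrl and -0.48 ± 0.13 in the shRNA-cFos arm, in the authors' deposited tables. Tap1, a peptide transporter gene that interferon also induces, was called in all 3 comparisons, at 1.23 ± 0.27, -0.90 ± 0.17 and 0.58 ± 0.19 in the authors' deposited tables. Of the 29 targets that rose with shRNA-Ctrl and were tested in both arms, 7 also rose with shRNA-cFos, 7 fell and 15 did not pass in the authors' deposited tables. The 7 that rose in both were Plk2, Zmat3, Fbxw7, Apaf1, Plagl1, Trp53i11 and Abhd4. The 7 with opposite directions were Gadd45a, Ckap2, Phlda3, Eda2r, Sesn2, Ephx1 and Tap1. Seen from the other arm, 7 of the 9 that rose with shRNA-cFos and 7 of the 14 that fell there had risen with shRNA-Ctrl, in the authors' deposited tables. The same overlap was not counted over all genes, so nothing particular to p53 targets is read from these overlaps.

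**Figure D4:**
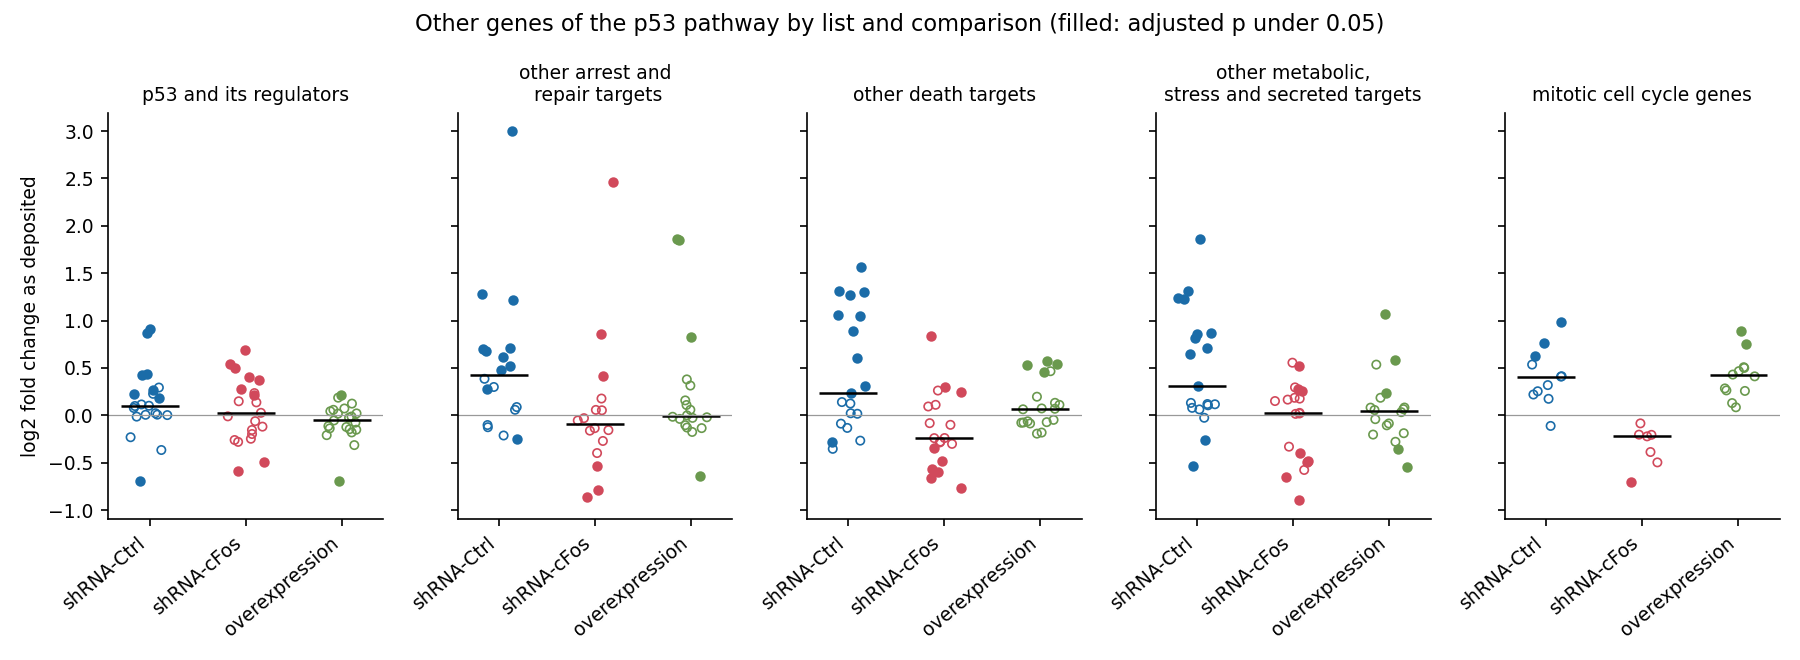
Log2 fold change (y axis, as deposited) of the other p53 pathway genes and of mitotic genes by list (panels) and comparison (x axis), where filled points have an adjusted p under 0.05, open points do not and black lines are medians over tested genes. Medians with shRNA-cFos lie under those with shRNA-Ctrl in each panel.

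Because Gtse1 is also a cell cycle gene, 12 mitotic genes were counted beside it. With shRNA-Ctrl, 3 of 11 tested rose and 0 fell, with shRNA-cFos 0 of 7 rose and 1 fell, and with overexpression 2 of 12 rose and 0 fell in the authors' deposited tables. Over all genes, 16.8%, 16.3% and 7.10% were higher and 16.2%, 11.7% and 5.86% lower in these comparisons. Nothing particular to mitotic genes is read from such small counts. Top2a, the topoisomerase of dividing cells, was called in each, at 0.63 ± 0.20, -0.71 ± 0.21 and 0.89 ± 0.19 in the authors' deposited tables. The summed level of the 12 genes went from 331 to 463 with shRNA-Ctrl, from 362 to 253 with shRNA-cFos and from 231 to 418 with overexpression, computed from the authors' deposited tables. These sums include genes that were not tested. Counts were low, with means from 4.32 for Cdc25c to 94.6 for Mki67 with shRNA-Ctrl, so the summed levels are uncertain.

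By the distance between log2 fold changes over the 3 comparisons, among 12208 genes with a mean count of at least 50 in each table, the genes nearest to Cdkn1a were Tgm1, Stk40, Creb3l1, Arid3b and Tnfrsf12a. Tgm1, at a distance of 0.47, had log2 fold changes of 1.51 ± 0.25, -0.14 ± 0.21 and 0.75 ± 0.17 in the authors' deposited tables. Tnfrsf12a, a receptor gene of the tumour necrosis factor family and the last of the 5 at a distance of 0.78, had 1.35 ± 0.26, -0.17 ± 0.20 and 1.54 ± 0.18 in the authors' deposited tables.

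Markers of cell types and of interferon signalling were counted as well, and their directions differed between the lists. The shares of all genes called are those given above. Granule neuron markers (10 genes, all measured, with mean counts of at least 225) marked the labelled tissue, and 7 fell and 1 rose with shRNA-Ctrl while 7 rose and 0 fell in the shRNA-cFos arm, in the authors' deposited tables. Their summed level went from 34454 to 26213 and from 16835 to 22493 in the 2 arms, computed from the authors' deposited tables. Microglial markers (8 genes) rose for 7 and fell for 0 in the shRNA-Ctrl arm, and rose for 1 and fell for 4 in the shRNA-cFos arm, in the authors' deposited tables. Their summed level went from 7979 to 10701 and from 7448 to 6015, computed from the authors' deposited tables. Interferon response genes (10) rose for 10 with shRNA-Ctrl, and 9 of them fell in the shRNA-cFos arm, in the authors' deposited tables, and their summed level went from 2274 to 6760 and from 4972 to 2357. With shRNA-Ctrl several of their standard errors, such as 0.291 for Ifit1, lay near the largest there (0.293). Removing the pull toward 0 enlarges such changes most, so these summed levels are uncertain. Their median log2 fold change as deposited was 1.12 with shRNA-Ctrl and -0.91 with shRNA-cFos. With overexpression 5 granule neuron markers fell, and 4 microglial and 3 interferon genes rose, in the authors' deposited table. No marker gene of these lists was at 0. Astrocyte markers rose for 2, 4 and 3 of 8 and fell for 0, 2 and 1 in the 3 comparisons of the authors' deposited tables. Endothelial markers rose for 4 and fell for 0 of 8 with shRNA-Ctrl, rose for 1 and fell for 1 with shRNA-cFos, and fell for 4 with overexpression, and oligodendrocyte markers fell for 2 of 8 with shRNA-cFos alone, in the authors' deposited tables. The part of these shifts in the changes of the p53 targets was not tested.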

How the data were processed

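The values used were the authors' 3 deposited tables of comparisons. The submitters' processing notes name TopHat2, DESeq2 and the build mm9 without versions. Read counting, annotation and strand setting were not given in the sources used here. Per the file headers, the authors give a mean normalized count (a signal value), a log2 fold change with its standard error, a Wald score, a p-value and an adjusted p-value. The deposited tables hold 0 columns of values per library, so library depth is unknown and precision is read from the authors' standard errors, with medians over tested genes of 0.11, 0.12 and 0.12 on the log2 scale for shRNA-Ctrl, shRNA-cFos and overexpression. Left out were 27 rows of the overexpression table whose gene names had become dates.

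A gene counted as called where the deposited adjusted p was under 0.05. For response differences, both standard errors were combined in quadrature, p came from the normal distribution (2-sided) and was adjusted by Benjamini-Hochberg over 14386 genes. The procedure was run on simulated data with normal noise set by the standard errors themselves. Such a run cannot show whether those errors are right. For group levels, a zero-centred normal prior (standard deviation 0.59, 0.53 and 0.41) was removed from the deposited fold changes, and 3 libraries per group were assumed. Alternatives were an adjusted p under 0.01, a fold minimum of 1.5, the prior removed, and no filter on low counts. Members and lists were chosen with earlier results of these data known. Named genes were the members, Fos, Trp53, Mdm4, up to 3 called genes of largest change per list and comparison, and the 5 nearest to Cdkn1a. Not all genes that this rule names are reported here. Bax, Apaf1 and Rprm at E1, Sesn1, Tctex1d4 and the genes listed by shared direction were named after their values were seen. Python 3.11.15, scipy 1.17.1, pandas 2.3.3 and matplotlib 3.10.9 were used.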

Additional observations from a re-analysis of the deposited data

Results flagged for a closer look

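Of 48 named genes tested in both hairpin arms, 32 had E1 responses that differed between the arms at an adjusted p under 0.05 (normal test of the difference, Benjamini-Hochberg over all genes), 31 lower and 1 higher with shRNA-cFos. Among all 14386 genes 23.8% differed, 11.0% lower and 12.9% higher. The named genes include the members, picked with their values known, and genes named for the size of this same difference or of the responses it is made from, so nothing is read from their count or its direction. Differences below are log2 values computed from the authors' deposited tables. Among the p53 targets described first, whose values were known when they were picked, they were Cdkn1a (-1.57), Mdm2 (-0.50), Pmaip1 (-2.22), Gtse1 (-2.63), Ccng1 (-0.72), Aen (-1.18), Plk3 (-1.64), Btg2 (-0.44) and Trp53inp1 (-1.26). Fos had -1.03. Among regulators they were Trp53 (-0.57), Ppp1r13l (-1.11), Atm (-0.56) and, in the other direction, Ppp1r13b (0.54), which encodes a p53-binding ASPP protein. Arrest and repair targets gave Plk2 (-0.53), Ckap2 (-2.07), Gadd45a (-1.34) and the DNA polymerase gene Polk (-0.88). Death targets gave Pidd1 (-1.84), Dram1 (-1.20), Tnfrsf10b (-1.60), Eda2r (-1.83), Fdxr (-0.80), Fas (-1.56) and Phlda3 (-1.64). The remaining targets gave Lif (-1.68), Sesn2 (-1.80), Tap1 (-2.13), Ephx1 (-1.51) and Gdf15 (-1.81). Mitotic genes gave Top2a (-1.33) and Cdc20 (-0.91). What underlies these differences was not tested.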

How the results depend on the processing

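No paired analysis was possible because the tables hold no values per library, and for the same reason no library could be left out. With the prior removed, and with no filter on low counts, each of the 10 genes kept its direction and its side of the threshold in the comparisons run. At an adjusted p under 0.01, calls were lost for Trp53inp1 (shRNA-Ctrl), Gtse1 (shRNA-cFos) and Btg2 (difference). With a fold minimum of 1.5 they were lost for Trp53inp1 (shRNA-cFos), Mdm2 and Btg2 (difference), and Mdm2 and Ccng1 with overexpression, which left 1 of 3 higher there. Over the 4 pathway lists, the lower count with shRNA-Ctrl went from 5 to 1 at 0.01 and to 1 with the fold minimum. With shRNA-cFos the higher count went from 16 to 9 at 0.01 and to 4 with the fold minimum, and the lower count from 16 to 8 with the latter. With overexpression the higher count went from 11 to 6 and 4, and the lower count from 4 to 2 with the fold minimum. Higher responses in the difference went from 3 to 0 with the fold minimum. With the prior removed, the largest E1 to E0 ratio among the 10 genes was that of Pmaip1 with shRNA-Ctrl, 6.36, which was 4.61 as deposited, below the 5.63 of Btg2. Without scaling between tables, which was added after seeing the data, the E0 log2 ratio turned negative for Mdm2 (-0.25), Pmaip1 (-0.17), Ccng1 (-0.38), Aen (-0.034) and Btg2 (-0.35). Stricter thresholds and the fold minimum lower counts by construction.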
